A study of Mus musculus with 2 samples.

Results

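The 6 genes described here control zinc and its buffering in the left ventricle: the metallothionein genes Mt1 and Mt2, the metal sensor gene Mtf1, the zinc exporter gene Slc30a1 and the zinc importer genes Slc39a8 and Slc39a10. They were found as the rows of the deposited expression table that carry these symbols, and all 6 were present among 31920 gene rows. The series holds RNA-seq of polyadenylated RNA from the cardiac left ventricle of 10-week-old male 129-SvEv mice: 1 wildtype library and 1 library that carries the genotype label Lamp2 knockout, below named knockout-labelled. The labels name no treatment and do not state which part of Lamp2, an X-linked gene for a lysosomal membrane protein, the allele removes. The genes were chosen by function with their read counts and RPM in these same libraries already known, so every ratio below is a description of 2 libraries without a test. No spread between animals can be estimated, and the intervals cover counting error only.

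Metallothioneins are small proteins rich in cysteine that bind zinc and copper and buffer their free levels in the cell. When free zinc rises, the zinc-finger protein MTF1 binds metal response elements near the start of the metallothionein genes and of Slc30a1, whose product moves zinc out of the cell. Glucocorticoids, acute-phase cytokines and oxidative stress are also known inducers of Mt1 and Mt2. Proteins of the SLC39 family bring zinc into the cytosol, and proteins of the SLC30 family remove it to the outside or into organelles.

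Mt1 and Mt2 lie on the plus strand of chromosome 8 in the mm10 build, with Mt1 from 94179089 to 94180327 and Mt2 from 94172618 to 94173567, 5521 bases apart. The start regions of both genes and of Slc30a1 are shown because MTF1 is known to act there and because the 2 metallothionein genes and Slc30a1 differed in their ratios below. Each runs from 250 bases before to 30 bases after the RefSeq start in the GRCm38.p6 build, 5′ to 3′ on the gene's strand, and capitals mark each match to the core of the metal response element.
Mt1 (chr8:94178839-94179118, plus strand): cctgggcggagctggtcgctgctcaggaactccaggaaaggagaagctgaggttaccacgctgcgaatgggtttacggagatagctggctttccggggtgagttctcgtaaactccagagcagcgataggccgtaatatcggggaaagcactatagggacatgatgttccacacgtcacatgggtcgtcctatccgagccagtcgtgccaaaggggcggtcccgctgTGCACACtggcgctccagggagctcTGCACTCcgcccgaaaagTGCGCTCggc
Mt2 (chr8:94172368-94172647, plus strand): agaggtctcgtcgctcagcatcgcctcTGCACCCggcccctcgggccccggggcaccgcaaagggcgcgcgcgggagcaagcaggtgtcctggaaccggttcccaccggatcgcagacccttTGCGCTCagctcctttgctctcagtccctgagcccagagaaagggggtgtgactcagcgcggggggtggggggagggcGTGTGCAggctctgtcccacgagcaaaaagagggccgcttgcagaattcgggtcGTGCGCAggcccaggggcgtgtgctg
Slc30a1 (chr1:191906531-191906810, plus strand): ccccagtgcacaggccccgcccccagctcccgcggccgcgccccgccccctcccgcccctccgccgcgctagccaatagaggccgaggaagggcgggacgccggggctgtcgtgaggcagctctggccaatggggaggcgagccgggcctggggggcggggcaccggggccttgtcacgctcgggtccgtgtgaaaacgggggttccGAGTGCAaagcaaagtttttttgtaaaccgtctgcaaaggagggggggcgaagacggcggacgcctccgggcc
The core was searched as TGCACNC and TGCGCNC on both strands. Positions count from the annotated RefSeq start as position 1, which need not be the first transcribed base. The 3 matches of Mt1 lay at positions −23 to −17, 3 to 9 and 21 to 27, all on the gene's strand. The 4 matches of Mt2 began at −223, −128, −50 and 5, of which the last pair lay on the opposite strand. Slc30a1 had 1 match, on the opposite strand, at −43 to −37. Of 32817 start regions of the same length in the RefSeq table, 24.1% held at least 1 match, 1.73% at least 3 and 0.405% at least 4. The antioxidant response element TGACNNNGC was matched once each in Mt2 and Slc30a1, without overlap with a metal response element, and in 11.5% of all regions. The RefSeq table holds 8 start regions for the 6 genes, and the RefSeq starts of Mt1, Mt2, Mtf1 and Slc30a1 equal the deposited gene start. The Mtf1 region had 0 matches to the metal response element, 1 of 2 regions of Slc39a8 had 1, and neither region of Slc39a10 had any. The 2 RefSeq starts of Slc39a8 lie 212 and 166 bases from its deposited start. Those of Slc39a10 lie 72267 and 109 bases from its own, so the first is far from the counted row. A match describes letters and not a bound site. GENCODE M21 places transcript starts elsewhere, offset from the RefSeq start by −7, 122 and 152 bases for Mt1 and by 46 and 242 bases for Mt2. Both GENCODE starts of Mt2 thus lie after the RefSeq start from which positions are counted. The regions end 30 bases after the RefSeq start, so the bases between that point and the starts further into the genes were not searched. The counts of matches hold for the regions shown and not for the whole promoters.

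**Figure D1:**
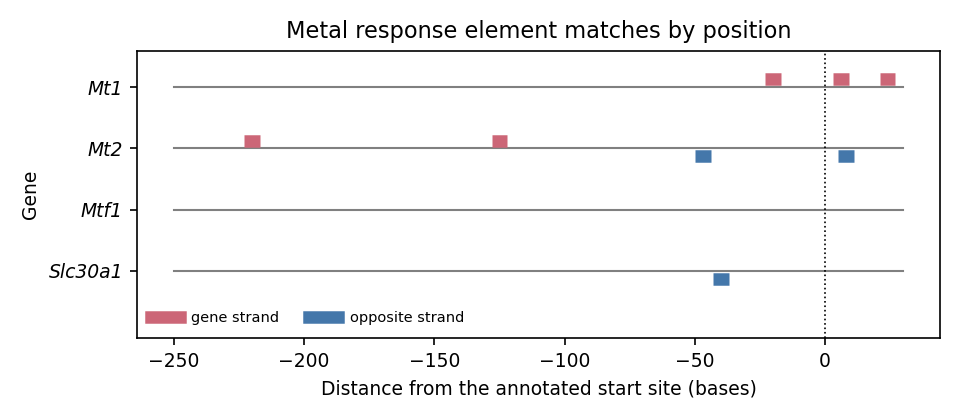
Matches to the metal response element core in the start regions of Mt1, Mt2, Mtf1 and Slc30a1. The x axis gives the distance in bases from the annotated start site, and red and blue blocks are matches on the gene's strand and on the opposite strand. Mt1 has 3 matches, Mt2 has 4, Slc30a1 has 1 and Mtf1 has 0.

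Mt1, the more abundant metallothionein transcript of both libraries, gave 4655 wildtype reads and 23667 knockout-labelled reads. In reads per 1000000 reads assigned to genes (RPM), these are 553 (exact 95% binomial interval 538 to 570) and 2697 (2663 to 2732). The knockout-labelled level was 4.87 times the wildtype level, with an interval of 4.72 to 5.03 for the ratio. Mt2, its neighbour and close relative, had 1001 reads (119 RPM, 112 to 127) in the wildtype and 9592 reads (1093 RPM, 1071 to 1115) in the knockout-labelled library. Its ratio was 9.19 (8.61 to 9.81). Both genes were thus far higher in the knockout-labelled library, and the counting intervals of the libraries were wide apart for each.

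**Figure D2:**
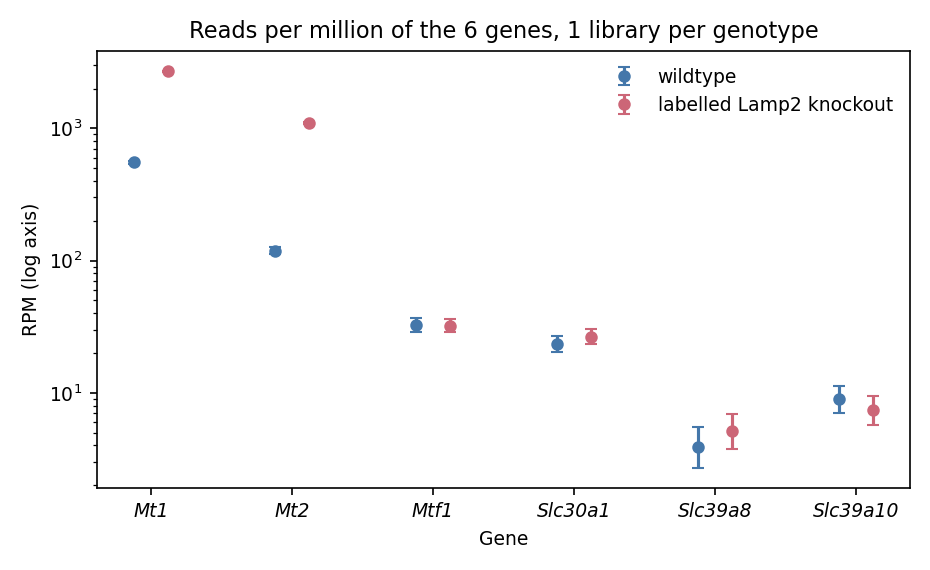
Level of each gene in RPM (log axis) in the wildtype library (blue) and the library labelled Lamp2 knockout (red). Points are single libraries and bars are exact 95% binomial intervals for counting error. Mt1 and Mt2 sit at 553 and 119 RPM in the wildtype and at 2697 and 1093 RPM in the other library, while the intervals of the other 4 genes overlap between the libraries.

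Together Mt1 and Mt2 took 0.0672% of all assigned reads in the wildtype (0.0655 to 0.0690) and 0.379% in the knockout-labelled library (0.375 to 0.383), a ratio of 5.64 (5.48 to 5.80) for their sum. The make-up of the pair differed as well. Mt2 supplied 17.7% of the pair's reads in the wildtype (16.7 to 18.7) and 28.8% in the knockout-labelled library (28.4 to 29.3). The ratio of Mt2 was 1.88 times that of Mt1 (conditional 95% interval 1.75 to 2.03), and this value does not depend on how the libraries are scaled. The longest identical run between annotated Mt1 and Mt2 transcripts was 20 bases, and 0 other GENCODE genes shared a stretch of 36 bases with either. No other row of the deposited table overlaps Mt1 or Mt2.

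Ranked by log2 ratio with 1 RPM added to each level, Mt2 was at place 2 and Mt1 at place 22 of the 10209 measured genes, those with at least 5 RPM in the higher library. A gene is called higher or lower here when that log2 ratio is at least 1 in size, a 2-fold difference. By this rule 342 measured genes, or 3.35%, were higher and 242, or 2.37%, were lower. Of the 6 genes, all were measured, 2 were called higher (Mt1 at a log2 ratio of 2.28 and Mt2 at 3.19), 0 were called lower and 4 were under the rule. Slc39a8 reached 5 RPM in the knockout-labelled library only. Since the genes were chosen with this contrast in view, these counts are not set against the background shares.

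**Figure D3:**
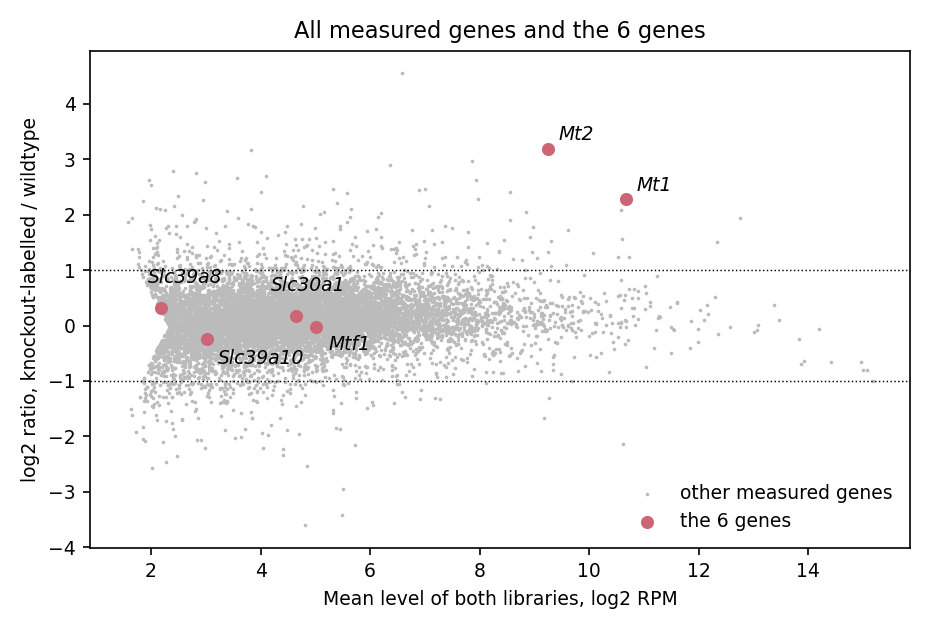
Log2 ratio of the knockout-labelled over the wildtype level (1 RPM added) against the mean level of both libraries in log2 RPM, for 10209 measured genes (grey) and the 6 genes (red). Dotted lines mark the 2-fold rule, and Mt2 and Mt1 lie above it at 3.19 and 2.28 while the other 4 genes lie between the lines.

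Mtf1, which encodes the zinc-sensing transcription factor (chromosome 4, 124802549 to 124849800, plus strand), was at nearly the same level in both libraries. It had 275 reads (32.7 RPM) in the wildtype and 283 reads (32.3 RPM) in the knockout-labelled library, a ratio of 0.986 (0.833 to 1.17). The whole interval lay far under those of Mt1 and Mt2. An opposite-strand row, 1110065P20Rik, overlaps the end of Mtf1 by 316 bases with 66 and 140 reads. No source used here says whether counting was by strand, so reads of this stretch cannot be assigned with certainty.

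Slc30a1, the gene of the exporter at the cell surface (chromosome 1, 191906781 to 191913247, plus strand), had 197 reads (23.4 RPM) in the wildtype and 233 reads (26.6 RPM) in the knockout-labelled library. The ratio was 1.13 (0.934 to 1.38), so a difference from 1 was not detectable at this depth. An opposite-strand row, 1700034H15Rik, overlaps its start by 747 bases with 19 and 18 reads. The ratio of Slc30a1 lay outside the counting intervals of Mt1 and Mt2. Start regions of these genes each hold a match to the metal response element core, as do 24.1% of all start regions. The part of these matches in the ratios was not tested.

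Slc39a8 encodes an importer of zinc and manganese (chromosome 3, 135825491 to 135888572, plus strand). With 33 reads (3.92 RPM) in the wildtype and 45 reads (5.13 RPM) in the knockout-labelled library it was the lowest of the 6 genes. Its ratio of 1.31 had a counting interval of 0.816 to 2.11, which holds both no difference and a 2-fold one. Slc39a10, which encodes another zinc importer (chromosome 1, 46807544 to 46853509, minus strand), had 75 reads (8.92 RPM) and 65 reads (7.41 RPM), a ratio of 0.831 (0.587 to 1.17). For these 2 importers, Mtf1 and Slc30a1, the counting interval held 1 on the deposited scale and under each of 3 rescalings.

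**Figure D4:**
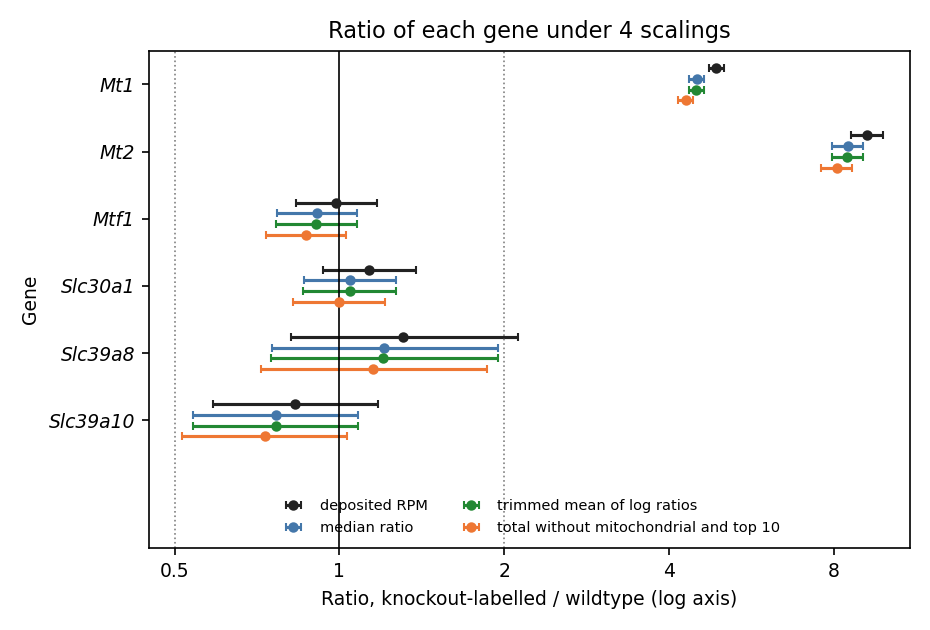
Ratio of the knockout-labelled over the wildtype level of each gene (log axis) on the deposited scale and under 3 rescalings, with bars for 95% counting intervals and dotted lines at 2-fold. Mt1 lies between 4.29 and 4.87 and Mt2 between 8.09 and 9.19, and the bars of the other 4 genes cross 1 under every scaling shown.

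The mitochondrial genome took 26.5% of assigned reads in the wildtype and 16.2% in the knockout-labelled library, and each RPM is a share of that total. Over all measured genes the log2 ratio had a median of 0.11. Dividing by the median ratio, by a trimmed mean of log ratios or by a reduced total (leaving out mitochondrial transcripts and the 10 most abundant other genes) shifts every ratio down by 0.12, 0.12 or 0.18 on the log2 scale. Lamp2 itself had 990 and 986 reads (118 and 112 RPM), so the count over the whole gene does not check the genotype label. The labelled tissue was matched by the cardiomyocyte markers, all 10 of which were measured, with Myh6 at 19313 and 18405 RPM.

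Levels of different genes were compared as RPM per kilobase of merged GENCODE exons. On this scale the order in both libraries was Mt1, Mt2, Slc30a1, Mtf1, Slc39a10 and Slc39a8. In the wildtype Mt1 stood at 444 and Mt2 at 202, against 4.47 for Slc30a1, 3.67 for Mtf1, 1.46 for Slc39a10 and 0.512 for Slc39a8. In the knockout-labelled library the values were 2165, 1859, 5.06, 3.62, 1.22 and 0.669 in the same order. The counting intervals of neighbours in this order overlapped for Slc30a1 and Mtf1 in the wildtype (3.86 to 5.14 and 3.25 to 4.13), and for no other neighbours in either library. Among 8968 measured genes with an annotated length, Mt1 moved from place 89 to place 23 by level per length and Mt2 from place 168 to place 26. The merged exons of Mt1 include introns kept in some transcripts. With the length of the spliced transcript that GENCODE lists first (549 bases for Mt1 and 511 for Mt2), an alternative added after the values were seen, Mt1 was 4.33 times Mt2 in the wildtype and 2.30 times in the knockout-labelled library, in place of 2.19 and 1.16. With that length Slc39a8 stood above Slc39a10 in the knockout-labelled library, at 1.60 against 1.35.

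The other metallothionein genes gave few reads. Mt3, known mainly from the brain, had 11 and 12 reads (1.31 and 1.37 RPM), and Mt4, known from stratified epithelia, was listed at 0 in both libraries, where 3 reads would correspond to 0.357 and 0.342 RPM. Both lie on the same strand upstream of Mt2. The measured rows within 100 kb of the pair were Bbs2, a gene of primary cilia, with 94 and 79 reads (ratio 0.806, 0.590 to 1.10) and Nup93, a nuclear pore gene, with 85 and 95 reads (ratio 1.07, 0.791 to 1.45). Within this stretch Mt1 and Mt2 were the rows called higher, and the counting intervals of both flanking genes held 1.

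The complete SLC30 and SLC39 families, 24 genes, were all listed, and 14 were measured. Of these, 1 was called higher and 0 lower, and the median log2 ratio was 0.21 against 0.11 over all measured genes, of which 3.35% were called higher. The called gene was Slc39a14, which encodes an importer of zinc, manganese and iron. It had 208 reads (24.7 RPM) in the wildtype and 500 reads (57.0 RPM) in the knockout-labelled library, a ratio of 2.30 (1.96 to 2.72). Scaled to the reduced total, its ratio was 2.03 and its log2 ratio with 1 RPM added was under the rule.

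Among 9 measured SLC39 importers, the log2 ratio was above 0 for 7, and its median 0.30 (0.13 to 0.19 when rescaled). The highest levels per kilobase were those of Slc39a1, an importer of the cell surface, at 50.3 in the wildtype and 59.7 in the knockout-labelled library, and of Slc39a7, which releases zinc from the endoplasmic reticulum, at 37.0 and 46.5. Their ratios were 1.19 (1.09 to 1.29) and 1.26 (1.15 to 1.38). Slc39a6 was at 4.76 and 8.43 RPM, a ratio of 1.77 (1.19 to 2.67). The lowest ratio among the measured importers was 0.778 (0.563 to 1.07), for Slc39a9, followed by that of Slc39a10. Slc39a2, Slc39a4 and Slc39a12 had at most 3 reads in either library.

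Among 5 measured SLC30 exporters, none was called, against 3.35% higher and 2.37% lower among all measured genes. Their log2 ratio was above 0 for 3, with a median of 0.04 (−0.07 to −0.13 under the rescalings). Slc30a9, a transporter of mitochondria, was the most abundant per kilobase at 6.01 and 5.89, with a ratio of 0.982 (0.878 to 1.10). Slc30a4, a transporter of intracellular vesicles, was at 9.51 and 13.8 RPM (ratio 1.45, 1.08 to 1.95), and Slc30a5, of the early secretory pathway, had 109 and 88 reads (ratio 0.774, 0.578 to 1.03). Whether an interval held 1 depended on the scaling for Slc30a4, Slc30a5, Slc30a9, Slc39a1 and Slc39a9. Apart from Slc39a14, no measured transporter of either family was called under any scaling tried.

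**Figure D5:**
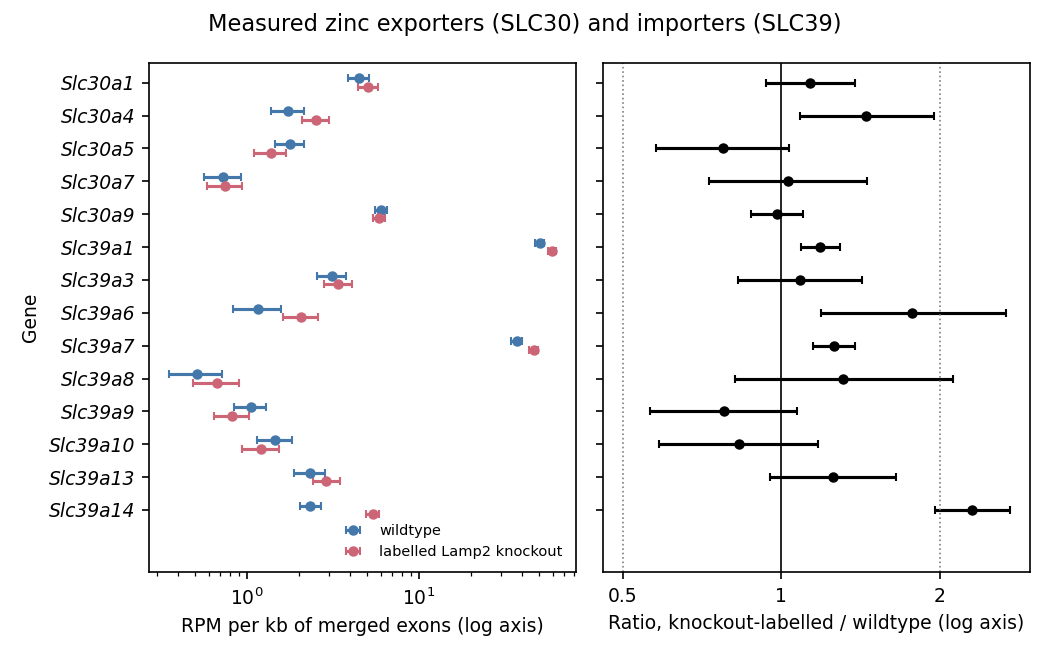
Measured members of the SLC30 and SLC39 families. The left panel gives RPM per kilobase of merged exons (log axis) in the wildtype (blue) and knockout-labelled (red) library, the right panel the ratio (log axis), with bars for 95% counting intervals. Slc39a14 is the only gene past the dotted 2-fold line, at 2.30, and Slc39a1 and Slc39a7 have the highest levels.

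The levels of genes reported as MTF1 targets were read next, with 8 of 9 symbols of the list in the table and all 8 measured. Of these, 3 were called higher and 0 lower, against 3.35% and 2.37% of all measured genes, and the called genes include Mt1 and Mt2 themselves. The other was Ndrg1, a stress-responsive gene, which was at 47.3 and 99.0 RPM (ratio 2.09, 1.86 to 2.36). The ratio of Ndrg1 was 1.84 to 1.93 under the rescalings, which ended its call. The targets that are not among the 6 genes and were not called were Gclc, outside the naming rule, which encodes the catalytic subunit of the first enzyme of glutathione synthesis, at a ratio of 1.03 (0.769 to 1.39), Csrp1 at 1.15 (0.967 to 1.37) and Sepw1, a selenoprotein gene, at 1.19 (1.11 to 1.28). Slc30a1 and Slc39a10, the latter known to be repressed by MTF1, were described above. The median of the list was 0.22 (0.04 to 0.11 under the rescalings).

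Copper, the other metal that metallothioneins hold, is handled by a separate set of genes. Of 13 measured copper genes, 0 were called, against 3.35% higher and 2.37% lower among all measured genes. Their median log2 ratio was −0.02 (−0.14 to −0.20 under the rescalings). Slc31a1, the copper importer of the cell surface, was at 13.4 and 10.3 RPM (ratio 0.763, 0.572 to 1.02), and Atp7a, a copper-exporting pump, at 7.61 and 7.18 RPM, both outside the naming rule. The largest ratios in size belonged to Slc31a2 at 1.46 (1.10 to 1.95), Cox17, which carries copper to cytochrome oxidase, at 1.41 (1.36 to 1.46), and Sco1, of the same route, at 0.715 (0.597 to 0.855).

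Lists for the other known inducers of metallothioneins were counted beside these values. Of 10 measured oxidative stress genes, 0 were called, against 3.35% higher and 2.37% lower among all measured genes. Their median log2 ratio was −0.06 (−0.18 to −0.24 under the rescalings). Hmox1, the haem oxygenase gene and a further responder to metals and oxidants, which stands outside the naming rule, was at 57.5 and 57.6 RPM. Nqo1, a quinone reductase gene, was at 357 and 246 RPM (ratio 0.690, 0.652 to 0.729). Nfe2l2, which encodes the oxidant-responsive factor NRF2, had a ratio of 0.728 (0.611 to 0.865), while Sqstm1, an autophagy receptor gene, went the other way at 1.33 (1.28 to 1.38).

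Of 12 glucocorticoid-responsive genes, all measured, 9 were called higher and 0 lower against 3.35% of all measured genes called higher, and the median was 1.71 (1.53 to 1.60 under the rescalings). Fkbp5, which encodes a cochaperone of the glucocorticoid receptor, was at 48.6 and 221 RPM, a ratio of 4.55 (4.09 to 5.07). Lcn2, Cdkn1a, Ddit4, Sgk1, Nfkbia, Errfi1, Zbtb16 and Per1 were the others called, with ratios of 26.7, 4.92, 3.40, 3.41, 3.34, 3.34, 2.84 and 2.11. Those under the rule were Klf9, Tsc22d3 and Dusp1, at 1.96, 1.53 and 1.39. The count was 8 under each rescaling, where the ratio of Per1 was 1.86 to 1.95. Of 12 measured STAT3 and acute-phase genes, 8 were called higher and 0 lower against the same 3.35%, and their log2 ratios centred on 1.06 (0.88 to 0.94 when rescaled). The count of higher genes was 5, 5 and 4 when rescaled. Stat3 itself was at 150 and 357 RPM (ratio 2.38, 2.23 to 2.54), Serpina3n had a ratio of 7.91, Cebpd 4.45, Osmr 2.15, Junb 2.09 and Cebpb 2.07. The 4 measured members under the rule were Il6ra at 1.94, Il6st at 1.18, Bcl3 at 1.18 and Socs3, the feedback inhibitor of this pathway, at 0.930 (0.723 to 1.19). Timp1 had 25 and 13 reads and Saa3 had 8 and 1 reads, both under the minimum level. Socs3, Timp1 and Saa3 stand outside the naming rule. Slc39a14 and Lcn2 are also on this list, and Lcn2 is on both lists. These lists were chosen with results of the same libraries known, so their counts are not independent evidence of a direction, and their part in the Mt1 and Mt2 values was not tested.

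The genes whose log2 ratio over the 2 libraries was nearest to that of Mt1, among those with at least 50 RPM in the higher library, were Cdkn1a, a cell cycle inhibitor gene, at 2.28, Csrnp1 at 2.21 and Ahnak2 at 2.38. Nearest to Mt2 were Serpina3n at 2.96, Apold1 at 2.89 and Efhd2 at 2.63. Mt2 stood 0.23 from its nearest such gene and Mt1 less than 0.01. Likeness over 2 libraries is a likeness of a single ratio.

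In tissue RNA, a change in the number of cells of a type and a change in RNA per cell cannot be told apart. Of 8 measured macrophage markers, 2 were called higher against 3.35% of all measured genes, C1qa at 37.7 and 82.1 RPM and C1qb at 45.8 and 121 RPM, and the summed level of the 9 listed markers was 163 and 307 RPM. Without C1qb, the most abundant of them, the sum was 117 and 186 RPM. The call of C1qa ended under each rescaling, which left 1, and with the 3-fold rule 0 were called. Fcgr1 was at 9 and 0 reads. Of 9 listed neutrophil markers 1 was measured, S100a9 at 0.594 and 10.0 RPM, and the summed level was 2.02 and 20.5 RPM with Mpo at 0 and 2 reads. All 10 fibroblast markers were measured, 4 of them were called lower (Col1a1, Col3a1, Lum and Pi16) against 2.37% of all measured genes, and the median log2 ratio was −0.77. Their summed level was 657 and 547 RPM, and 278 and 154 RPM without Dcn, the most abundant of them. For the 10 endothelial markers the summed level was 754 and 823 RPM, for the 4 listed red blood cell genes 165 and 141, and for the cardiomyocyte markers 65321 and 62830, with 0 genes called in these lists. The 10 markers of smooth muscle and pericytes, also with 0 called, summed to 3721 and 4490 RPM, but to 1042 and 951 RPM without Des, which cardiomyocytes also express, and 2 of 9 measured had a log2 ratio above 0 (median −0.12). The sums without the most abundant marker were added after the data were seen. The part of cell composition in the Mt1 and Mt2 values was not tested.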

How the data were processed

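Left ventricle RNA-seq libraries of 1 wildtype and 1 Lamp2 knockout mouse were grouped by the genotype labels. The submitters' processing notes name STAR, mm10 and GRCm38. Counting tool, annotation and strand setting are not given in these sources. The authors deposited read counts per gene symbol, which are whole numbers, and RPM values, which equal the count divided by the total over all listed genes (largest difference 5.0e-05). The fold (ratio) and p-value columns that the authors deposited, with no method stated, were not used. Depth was 8410593 reads in the wildtype and 8773820 in the knockout-labelled library.

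Ratios were computed from the counts with conditional binomial (Clopper-Pearson) 95% intervals. Intervals and the floor of 3 reads cover counting error only, since PCR copies of a molecule could not be told apart. With 1 library per group no test of the genotypes was possible. Deposited starts count from 0 and are given plus 1. Lengths came from GENCODE M21, matched by symbol and chromosome for 87.8% of measured genes. The members and all 15 gene lists were chosen with earlier results of these data known. Named genes were the 6 members, the called genes of each list, up to 3 others with the largest log2 ratio in size, the 2 most abundant transporters per family, rows within 100 kb of the metallothionein pair and the 3 genes most like Mt1 and Mt2, without provisional symbols. Genes outside this rule are marked, except cell type markers, rows that overlap a member, transporters with at most 3 reads and Lamp2. Alternatives were a pseudocount of 0.1 or 5 RPM, a minimum of 1 or 20 RPM or none, rules of 1.5-fold and 3-fold, 3 rescalings (the trimmed mean drops 30% of ratios and 5% of levels at each end) and other transcript lengths. The interval, the 2-fold rule and the rescalings were run on simulated counts with planted changes and counting error only. That run held no spread between animals, so it could not check the rule against such spread. Python 3.11.15, numpy 2.4.6, pandas 2.3.3, scipy 1.17.1 and matplotlib 3.10.9 were used.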

Additional observations from a re-analysis of the deposited data

How the results depend on the processing

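The rescalings lowered Mt1 and Mt2 by more than counting error without ending their calls. The log2 ratio of Mt1 was 2.17 after division by the median ratio, 2.16 with the trimmed mean and 2.10 with the reduced total (no mitochondrial transcripts, no top 10 genes), and that of Mt2 was 3.07, 3.07 and 3.01. The values of Mtf1, Slc30a1, Slc39a8 and Slc39a10 stayed within counting error of the main value under both other pseudocounts and the 3 rescalings, though Slc30a1 moved from 0.17 to just under 0 with the last rescaling. Among metallothionein and transporter genes, the 3 called higher became 2 with that rescaling and with the 3-fold rule, and 4 with the 1.5-fold rule, and 0 were lower in any setting. Over all measured genes the count of higher genes, 342 in the main setting, was 427 and 194 with pseudocounts of 0.1 and 5 RPM. It was 457 with a minimum of 1 RPM or none and 220 with a minimum of 20 RPM. Under the 3 rescalings it was 244, 243 and 216, with the 1.5-fold rule 1307 and with the 3-fold rule 87. The count of lower genes, 242 in the main setting, was 297 and 75 with the same pseudocounts. It was 397 with a minimum of 1 RPM or none and 92 with a minimum of 20 RPM. Under the 3 rescalings it was 308, 310 and 357, with the 1.5-fold rule 745 and with the 3-fold rule 46. The split moved from 58.6% higher to 44.2%, 43.9% and 37.7% under the rescalings, 72.1% with a pseudocount of 5 RPM and 70.5% with a minimum of 20 RPM. With the length of the transcript that GENCODE lists first, an alternative added after the data were seen, 4 of the 6 genes held the same rank by level per length in the knockout-labelled library and 6 in the wildtype, and with the longest transcript 6 held it in both. No paired analysis was possible because each group has 1 library, and no library could be left out. Near 5 RPM a ratio rests on few reads, as for Slc39a8, and no setting can supply the spread between animals.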
